A study of Mus musculus with 6 samples.

Results

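The 3 *Cited* genes of the mouse and the genes of the acetyltransferases that their proteins bind, *Ep300* (p300) and *Crebbp* (CBP), were followed in RNA-seq of embryos at E8.5. These 5 genes were found by symbol among the 20280 genes of the deposited table, and all 5 were listed. They were chosen by name after the low mean of *Cited4* in the mutants was known, so the difference of *Cited4* between genotypes is given as a description and not as a finding. The samples were 3 libraries from wildtype embryos (*Tip55*+/+) and 3 from *Tip55* knockout embryos (*Tip55*Δ/Δ), called wildtype and mutant below, all on the FVB/N strain and from intercrosses of heterozygotes. In the mutant allele, introns near the 3′ end of *Kat5* are deleted in every cell, which removes the *Tip55* splice form and leaves the coding sequence of the other forms in place. RNA came from embryos as such, so fewer cells of a type and less RNA per cell cannot be told apart, and the sources do not state whether a library was 1 embryo or a pool.

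CITED proteins do not bind DNA themselves. Through a conserved acidic stretch near the C-terminus they bind the CH1 domain of CBP and p300, and they link these enzymes to transcription factors such as those of the TFAP2 family. CITED2 also competes with HIF-1α for the same domain and so restrains the response to low oxygen. CBP and p300 acetylate histone tails at enhancers and promoters and serve as coactivators for factors of many lineages, red blood cells included. Mouse embryos without *Cited2* have defects of the heart, the neural tube and left-right patterning, and embryos without *Ep300* or *Crebbp* die around mid-gestation. *Cited4* is known from embryonic blood-forming tissue and endothelium, and *Cited1* from trophoblast and the developing kidney.

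Each value below is the mean normalized count of a gene over the 3 libraries of a genotype, solved from a pair of ratios in the deposited table. No value of a single library was analysed, so the spread between embryos is unknown, no test across embryos was run, and no p-value is given. Intervals are 95% exact intervals on counts summed over 3 libraries, and they cover counting error only. Summed over all genes, the means gave 4.91e+07 normalized counts for *Tip55*+/+ embryos and 4.72e+07 for *Tip55*Δ/Δ embryos, so the mutant total was 0.961 of the wildtype one. *Kat5* itself had 2218 normalized counts in wildtype and 1615 in mutant embryos, a value that sums all splice forms, overlaps *Rnaseh2c* and does not check the loss of the *Tip55* form. Markers of heart (*Myl7*, 3719 normalized counts), neural tissue (*Sox2*, 4304) and somites (*Meox1*, 4589) were well counted in *Tip55*+/+ embryos, and the maternal decidua marker *Prl8a2* was counted too, at 503 in wildtype and 27.6 in mutant embryos.

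The promoters of the *Cited* genes are shown because one of these genes differed between genotypes far more than the others. Each runs from 250 bases before to 50 bases after a transcription start, from RefSeq on GRCm38.p6, the assembly that mm10 denotes, and is written 5′ to 3′ on the strand of the gene. All 5 members matched an entry. Capitals mark matches, on either strand, to letters chosen after the results were known. For GATA factors these were AGATAA as well as AGATAG, together with TGATAA as well as TGATAG. For KLF factors they were CCACACCC or else CCNCGCCC, for the hypoxia response ACGTG or, as a second form, GCGTG, for TFAP2 GCCNNNGGC, for CREB TGACGTCA, and for the core promoter CCAAT along with TATAAA.
*Cited4*, chr4:120666313-120666612, plus strand: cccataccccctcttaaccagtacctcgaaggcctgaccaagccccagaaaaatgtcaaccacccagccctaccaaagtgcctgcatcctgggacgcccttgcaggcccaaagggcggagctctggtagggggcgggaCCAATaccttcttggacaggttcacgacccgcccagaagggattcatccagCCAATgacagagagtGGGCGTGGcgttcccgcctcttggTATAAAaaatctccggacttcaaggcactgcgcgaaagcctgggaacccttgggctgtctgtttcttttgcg
*Cited2*, chr10:17722978-17723277, plus strand: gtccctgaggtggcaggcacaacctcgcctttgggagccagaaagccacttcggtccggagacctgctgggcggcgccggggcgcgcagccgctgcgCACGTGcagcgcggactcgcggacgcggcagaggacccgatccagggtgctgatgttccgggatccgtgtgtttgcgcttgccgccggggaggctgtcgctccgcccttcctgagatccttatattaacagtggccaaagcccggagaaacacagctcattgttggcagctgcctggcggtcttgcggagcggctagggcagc
*Cited1*, the outermost of 3 listed starts, chrX:102252132-102252431, minus strand: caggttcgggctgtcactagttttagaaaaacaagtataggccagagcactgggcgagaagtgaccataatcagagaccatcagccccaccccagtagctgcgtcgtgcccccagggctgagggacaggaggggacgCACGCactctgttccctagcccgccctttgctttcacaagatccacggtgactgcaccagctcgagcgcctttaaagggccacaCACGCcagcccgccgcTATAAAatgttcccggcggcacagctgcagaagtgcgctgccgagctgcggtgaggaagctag

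The *Cited4* promoter held TATAAA 22 bases before the start, CCAAT at 61 and 112 bases before it, and a CCNCGCCC match on the opposite strand at 46 bases, which overlaps a GCGTG match. The *Cited1* promoter shown held TATAAA 13 bases before the start and no CCAAT, and the *Cited2* promoter held neither. *Cited2* held the hypoxia letters on both strands at 1 place, CACGTG, and *Cited1* held them at 2 places, as CACGC on the strand shown. Of 32851 promoters of the same length, 13.6% held TATAAA, 37.4% CCAAT, 26.5% the KLF letters and 43.8% the hypoxia letters. None of the 5 members' promoters held the GATA letters (29.8% of all promoters) or TGACGTCA (1.79%), which says only that these letters are not in these windows. Of the members, *Crebbp* (matched at 2 places) and the innermost of the *Cited1* starts held GCCNNNGGC, present in 16.6% of all promoters. CpG pairs numbered 13 in the *Cited4* promoter, 18 in that of *Cited1* shown above, 29 in that of *Cited2*, 30 in that of *Ep300* and 49 in that of *Crebbp*, against a median of 7. *Cited4* thus had the fewest CpG pairs of these, though still more than 62.1% of all promoters.

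*Cited4* was 9.31-fold lower in *Tip55*Δ/Δ embryos, and the other 4 members were lower by 1.03-fold (*Cited1*) to 1.19-fold (*Ep300*), with *Cited1* turning to 1.01 and 1.22 times the wildtype level under other scalings. Its mean was 807 normalized counts in *Tip55*+/+ (interval 775 to 840) and 86.7 in *Tip55*Δ/Δ embryos (interval 76.5 to 97.9). The ratio of *Tip55*Δ/Δ over *Tip55*+/+ was 0.107 (interval 0.0941 to 0.122), a log2 ratio of −3.22. The gene spans positions 120666572 to 120667820 of chromosome 4 (GRCm38, plus strand), and its exons overlap no other annotated gene.

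*Cited2*, the most abundant of the 3 family members, had 11517 normalized counts in wildtype and 10222 in mutant embryos. This ratio of 0.888 (interval 0.874 to 0.901) is a difference of 11.2% and a log2 ratio of −0.17. *Cited1*, on the X chromosome, had 4418 and 4288 normalized counts, a ratio of 0.971 (interval 0.947 to 0.994). Its direction is not settled, since the ratio becomes 1.01 when the means are divided by the genotype totals and 1.22 when the trend with base composition is removed. *Cited2* lies on chromosome 10 from 17723218 to 17725674 on the plus strand and *Cited1* on chromosome X from 102247381 to 102252181 on the minus strand, and neither overlaps the exons of another gene.

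Both acetyltransferase genes were slightly lower in *Tip55*Δ/Δ embryos. *Ep300* had 10576 and 8861 normalized counts in wildtype and mutant embryos (ratio 0.838, interval 0.824 to 0.852). *Crebbp* had 4129 and 3586 (ratio 0.868, interval 0.846 to 0.891). The intervals of these ratios lie below 1, but they leave out the difference between embryos, so they do not show that the genotypes differ. *Ep300* lies on chromosome 15 from 81585351 to 81652077 on the plus strand and shares bases with the small RNA gene *Gm23880*, and *Crebbp* lies on chromosome 16 from 4081328 to 4213997 on the minus strand.

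**Figure D1:**
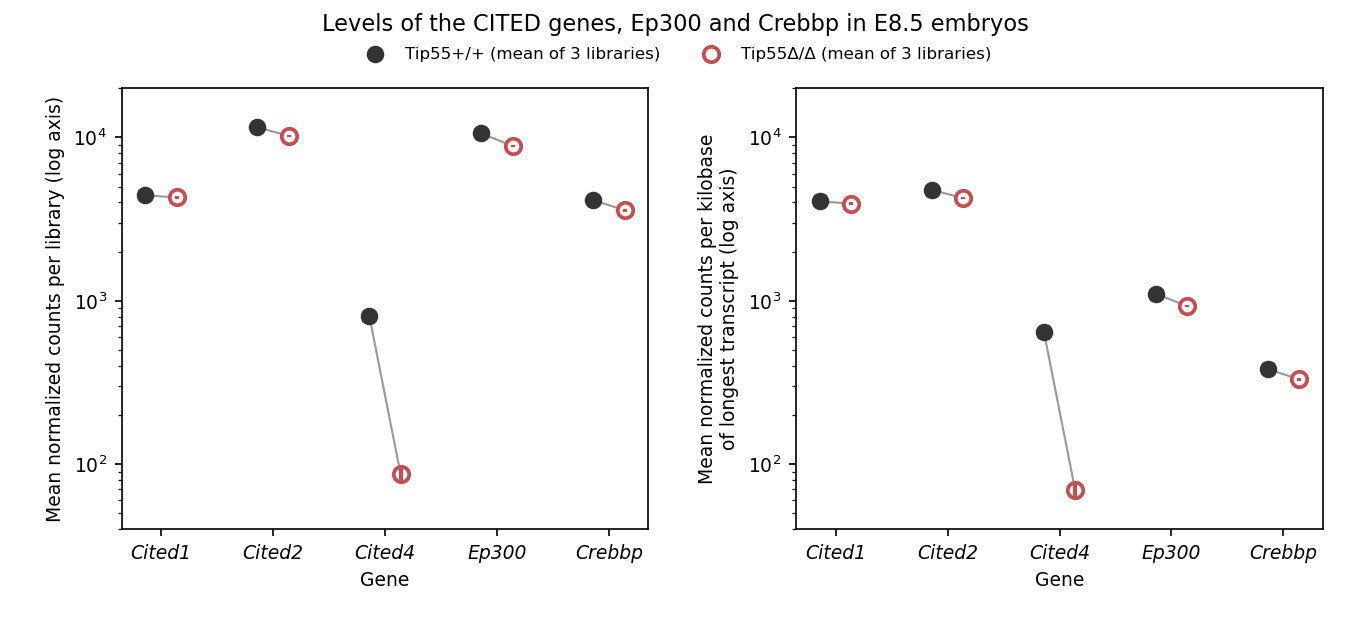
Mean normalized counts per library (left) and per kilobase of the longest annotated transcript (right), both on log axes, for the 5 genes in *Tip55*+/+ (filled) and *Tip55*Δ/Δ (open) embryos, each point the mean of 3 libraries. Vertical bars are 95% exact Poisson intervals, which stay within or near the markers and cover counting error only, and the line of *Cited4*, from 807 to 86.7 normalized counts, is the only steep one.

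Past a limit of 1.5-fold, 1 of the 5 members was lower (*Cited4*) and 0 were higher. Among the 15916 genes that reached a mean of 10 normalized counts in 1 genotype or both, 5.75% were lower and 7.55% higher past the same limit, all 5 members being among them, and nothing is read from the count of members, which were picked with this contrast known. The median log2 ratio of the 5 members was −0.20, against −0.00 over those 15916 genes, whose quartiles were −0.20 and 0.20.

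Set against genes of like abundance, *Cited4* stood farther from the centre than the other 4 members. The members were chosen with the low mean of *Cited4* known, so its place here is a description and no test of rarity. Among 3201 other genes whose average over the genotypes lay within 2-fold of that of *Cited4*, those between the quartiles had log2 ratios from −0.21 to 0.20, and 7 genes (0.219%) were at or below *Cited4*. They included *Alas2* (the erythroid enzyme that starts haem synthesis), *Klf1* (an erythroid transcription factor), *Csf2rb* (a cytokine receptor chain of blood cells), the prolactin-family gene *Prl8a2* and the retroviral gene *Erv3*. For *Ep300*, 15.6% of 1947 genes of like abundance had a log2 ratio as low or lower, and for *Crebbp* 21.9% of 4006. *Cited2* was matched or exceeded in this way by 26.6% of 1701 genes and *Cited1* by 49.6% of 3783, so *Cited1* sat at the middle of its class.

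**Figure D2:**
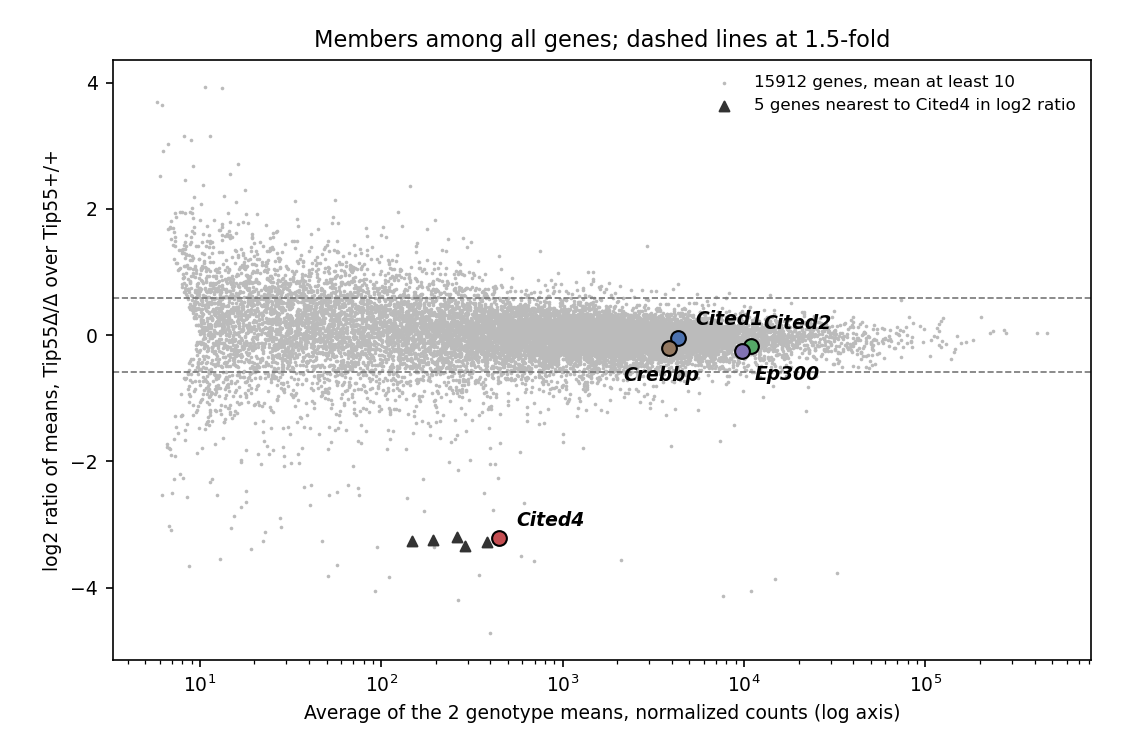
Each grey point is a gene that reached a mean of 10 normalized counts, by the average of the genotype means (log axis) and the log2 ratio of *Tip55*Δ/Δ over *Tip55*+/+, with genes at 0 in a genotype left out and dashed lines at 1.5-fold. *Cited4* lies at −3.22 among the 5 genes nearest to it in log2 ratio (triangles), and *Cited1*, *Cited2*, *Ep300* and *Crebbp* lie within the dense band around 0.

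Compared per length, the order of the genes changed between genotypes at 1 place. In *Tip55*+/+ embryos *Cited2* had 4777 normalized counts per kilobase of its longest transcript, *Cited1* 4054, *Ep300* 1106, *Cited4* 646 and *Crebbp* 382. In *Tip55*Δ/Δ embryos the same quantity was 4240 for *Cited2*, 3934 for *Cited1*, 926 for *Ep300*, 331 for *Crebbp* and 69.4 for *Cited4*. *Cited4* was thus 1.69 times the level of *Crebbp* per length in *Tip55*+/+ embryos and 0.209 times its level in *Tip55*Δ/Δ embryos, while *Ep300* stayed at 2.90 and 2.80 times the level of *Crebbp*. *Cited2* was 1.18 times the level of *Cited1* per length in wildtype and 1.08 times in mutant embryos. Whether neighbours in this order differ beyond the spread of embryos cannot be said from genotype means.

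*Cited4* was the least abundant *Cited* gene, and the summed level of the family moved much less than *Cited4* did. The 3 genes together had 16743 normalized counts in wildtype and 14597 in mutant embryos, a ratio of 0.872 (interval 0.861 to 0.883). *Cited4* made up 4.82% of the family's counts in wildtype and 0.594% in mutant embryos, or 6.82% and 0.842% per length. *Cited2* made up 68.8% and 70.0%. Of the family's difference of −2146 normalized counts, *Cited2* accounted for 60.4%, *Cited4* for 33.6% and *Cited1* for 6.06%. *Ep300* and *Crebbp* together had 14705 and 12447 normalized counts, a ratio of 0.846 (interval 0.835 to 0.858), and *Ep300* made up 71.9% and 71.2% of this sum.

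The genes with the ratio most like that of *Cited4* were mostly genes of red blood cells. *Cited4* was chosen with its low mean known, and erythroid genes lie in that range of ratios. The likeness is therefore a description and says nothing particular to *Cited4*. The 12558 genes that reached a mean of 100 normalized counts were ranked by the distance of their log2 ratio from that of *Cited4*, a likeness that rests on 2 genotype means and so on 1 number per gene. The nearest 5 included *Hemgn* (haemogen, a nuclear protein of blood progenitors), *1700047E10Rik*, *Trim10* (a factor of late red cell formation) and *Klf1*. *Hemgn* went from 470 to 51.2 normalized counts, a log2 ratio of −3.20, and *Trim10* from 267 to 27.8, a log2 ratio of −3.26. The difference in log2 ratio from *Cited4* was 0.02 for *Hemgn* and −0.11 for *Klf1*. Of the 12558 genes, 20 (0.159%) had a log2 ratio at or under that of *Cited4*.

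The erythroid markers were far lower in mutant embryos, as *Cited4* was, and the endothelial markers did not move as far. *Cited4* was chosen with its low mean known, so this likeness is a description and does not show that these genes move together. Over all genes, 5.75% were lower and 7.55% higher past 1.5-fold. All 9 primitive erythroid markers analysed were lower past 1.5-fold, among them *Hbb-y*, an embryonic beta globin (ratio 0.0571), and *Gfi1b*, a transcriptional repressor of the lineage (ratio 0.0974), and their summed level went from 110386 to 7837 normalized counts. The ratio of *Cited4*, 0.107, was above that of each of the 9, and its counting interval overlapped that of 4 of them, *Rhag* and *Gfi1b* included. With the trend on GC content removed, *Cited4* stood farther from these markers. Its log2 ratio was then −2.76, and those of the 9 ran from −4.13 (*Hbb-y*) to −3.19 (*Gfi1b*). The overlap of intervals was counted without this step. The 9 endothelial markers summed to 21968 and 20062 normalized counts, with ratios from 0.601 (*Sox18*) to 1.11 (*Kdr*), and 2 of them, *Sox18* and *Tie1*, were lower past 1.5-fold. With the trend on GC content removed, neither was past the limit, at log2 ratios of −0.46 for *Sox18* and −0.43 for *Tie1*. No marker of either list was at 0 in either genotype. Yolk sac endoderm markers were lower as well, 4 of 5 past 1.5-fold, with a summed ratio of 0.589, and the other one, *Apob*, moved past the limit with the GC trend removed (log2 ratio −0.59). The part of cell composition in the *Cited4* value was not tested.

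The other cell types listed showed no such common shift. Their counts past 1.5-fold stand beside 5.75% lower and 7.55% higher over all genes, and with so few markers per list nothing more is read from them. Cardiac markers were lower past 1.5-fold in 0 of 8 and higher in 2, *Tnnt2* (2869 and 4498 normalized counts in *Tip55*+/+ and *Tip55*Δ/Δ) and *Myh7* (10939 and 17037). Neural markers were lower in 1 of 6 (*Hes5*, 357 and 198), which was within the limit with the GC trend removed (log2 ratio −0.53). Neural crest markers, which include *Tfap2a* and *Ets1* of other lists, were lower in 0 of 5. Somite and presomitic markers were split, with *Uncx* lower (304 and 119) and *Tbx6* (911 and 1493) and *Msgn1* (255 and 469) higher, joined by *Hes7* with the GC trend removed (log2 ratio 0.72). Of 5 trophoblast markers, *Prl3d1* was lower (26.9 and 6.69) and *Ascl2* higher (22.1 and 39.0). Of 5 decidual markers with a mean of at least 10, *Prl8a2* was lower and the granzymes *Gzmf* and *Gzmg* were higher. Both granzymes reached a mean of 10 in mutant embryos only. Their wildtype means were 1.65 for *Gzmf* (ratio interval 6.15 to 47.5) and 1.31 for *Gzmg* (ratio interval 5.56 to 56.8). Nothing is therefore read from the place of these granzymes in the count.

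Transcription factors that bring CBP and p300 to DNA were listed as erythroid and other factors, with results known. Of 5 erythroid factors known to bind CBP or p300, 4 were lower past 1.5-fold (5.75% over all genes), and the median log2 ratio was −2.58, against −0.00 over the 15916 genes. *Gata1* had 355 normalized counts in wildtype and 34.9 in mutant embryos, *Klf1* 527 and 52.3, and *Nfe2*, a subunit of a globin enhancer-binding factor, 237 and 39.8. *Tal1*, a basic helix-loop-helix factor also of endothelium, had 1437 and 700 (ratio 0.487, interval 0.462 to 0.513). *Myb*, which marks definitive more than primitive blood progenitors, had 186 and 131 normalized counts (ratio 0.701, interval 0.615 to 0.799) and was not past the limit. Its ratio was close to that of *Tcf3* in the other list (0.684, interval 0.675 to 0.693), and the counting intervals overlapped.

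The 19 other factors that bind CBP or p300 had a median log2 ratio of −0.07. A count of 0 of 19 past 1.5-fold in either direction stands beside 5.75% lower and 7.55% higher over all genes, and nothing particular to the list is read from it. Their ratios ran from 0.684 for *Tcf3*, an E protein with 19195 and 13124 normalized counts, to 1.16 for *Stat2*, a factor of the interferon response with 392 and 454. *Creb1*, the factor from which CBP takes its name, had 5316 and 5452 normalized counts (ratio 1.03). *Trp53*, the gene of p53, had 15540 and 13260 (ratio 0.853). *Smad3*, an effector of TGF-beta and Nodal signals, had 4844 and 3897 (ratio 0.805).

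The 8 coactivators that work beside CBP and p300 had a median log2 ratio of −0.12, and 0 of 8 were past the limit, which most of all genes were not past either. The p160 genes differed from each other, *Ncoa2* being lower at 5224 and 3858 normalized counts (ratio 0.739, interval 0.721 to 0.757) and *Ncoa1* higher at 412 and 484 (ratio 1.17, interval 1.09 to 1.27). *Carm1*, an arginine methyltransferase that acts with them, had 17092 and 15559 (ratio 0.910). *Eid1*, an inhibitor of p300, had 6082 and 5463 (ratio 0.898).

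Among partners of CITED proteins, 0 of 3 TFAP2 genes with a mean of at least 10 were past 1.5-fold, and in the HIF pathway 0 of 10 were, counts that are close to the shares over all genes (5.75% lower and 7.55% higher). Of the TFAP2 genes, *Tfap2a*, needed for neural crest and neural tube closure, had 1962 normalized counts in wildtype and 1759 in mutant embryos (ratio 0.897), and *Tfap2c*, of trophoblast and germ cells, had 487 and 465 (ratio 0.955). *Tfap2b* was the lowest at 1148 and 794 (ratio 0.692, interval 0.656 to 0.729). *Tfap2d* and *Tfap2e* stayed under 10 normalized counts in both genotypes. The 10 genes of the HIF pathway had a median log2 ratio of −0.07. *Hif1a*, the oxygen-regulated subunit with which CITED2 competes, had 10634 and 11035 normalized counts (ratio 1.04, interval 1.02 to 1.05), and *Epas1*, the gene of HIF-2α, 1210 and 1394 (ratio 1.15, interval 1.10 to 1.20). *Hif3a* was the lowest, with 900 and 644 normalized counts (ratio 0.715, interval 0.675 to 0.759).

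Genes tied to *Cited2* by mouse mutants did not move together. Of 7 with a mean of at least 10, 3 were higher past 1.5-fold (7.55% over all genes) and 0 lower (5.75% over all genes). *Lefty2*, a Nodal antagonist of the left lateral plate, had 20.5 normalized counts in wildtype and 90.8 in mutant embryos (ratio 4.42, interval 3.33 to 5.90), and *Nodal* itself 10.2 and 24.5 (ratio 2.40, interval 1.53 to 3.71). *Nr5a1*, a factor of the adrenal and gonad, went from 5.96 to 25.7 (ratio 4.30, interval 2.54 to 7.60). It reached a mean of 10 in mutant embryos only, so nothing is read from its place in the count. *Bmi1*, a Polycomb gene, was at 3008 and 2625 normalized counts (ratio 0.873). *Lefty1* stayed under 10 normalized counts in both genotypes.

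**Figure D3:**
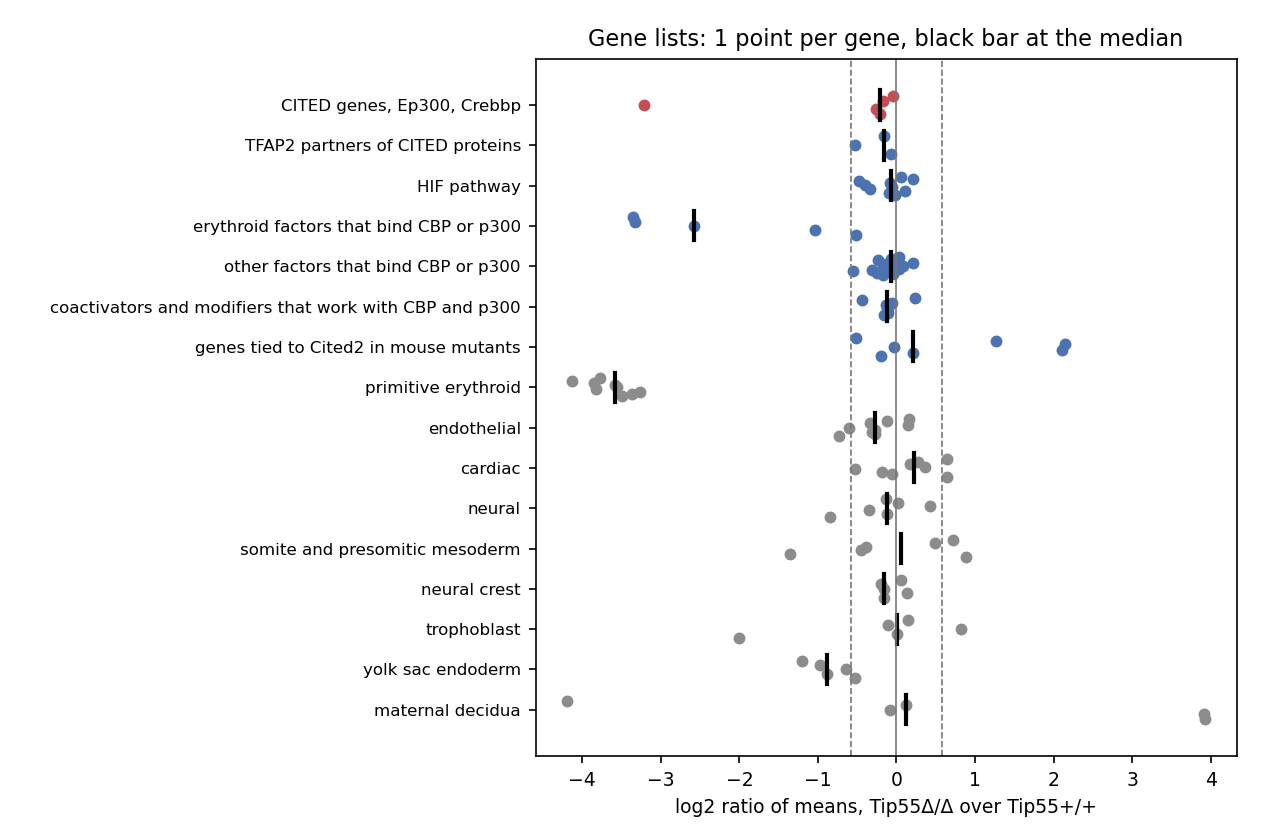
The log2 ratio of *Tip55*Δ/Δ over *Tip55*+/+ for each listed gene that reached a mean of 10 normalized counts (1 point each), by list, with a black bar at each median and dashed lines at 1.5-fold. The lists with medians far below 0 are the primitive erythroid markers (−3.58), the erythroid factors that bind CBP or p300 (−2.58) and the yolk sac endoderm markers (−0.88).

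Genes close to *Cited4* on the chromosome did not share its difference. In a comparison added after the values were seen, the nearest measured gene upstream was *Ctps* (CTP synthase), 96.3 kb away with 8577 normalized counts in wildtype and 8440 in mutant embryos (ratio 0.984). *Nfyc*, a subunit of the factor that binds CCAAT, lies 165 kb downstream and had 5862 and 5852 (ratio 0.998). Of the 11 other genes with a start within 500 kb of that of *Cited4*, 0 were past 1.5-fold in either direction, and their median log2 ratio was 0.08. Around *Cited2*, 0 of 4 genes were past the limit, and around *Cited1* 1 of 7 was, *Rgag4* at 217 and 142 normalized counts. Near *Ep300*, 1 of 20 genes was past it, *Mchr1*, which was higher at 14.4 and 26.4. Around *Crebbp*, 2 of 19 genes were past the limit, both lower. Over all genes 5.75% were lower and 7.55% higher past the same limit, and nothing is read from the counts in these windows. *Crebbp* had a neighbour with a larger difference than its own. *Gm5766*, whose start lies 15.2 kb upstream of that of *Crebbp*, had 912 normalized counts in wildtype and 254 in mutant embryos (ratio 0.278, interval 0.256 to 0.302), and *Glis2*, a zinc finger gene further upstream, had 3180 and 2000.4.

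**Figure D4:**
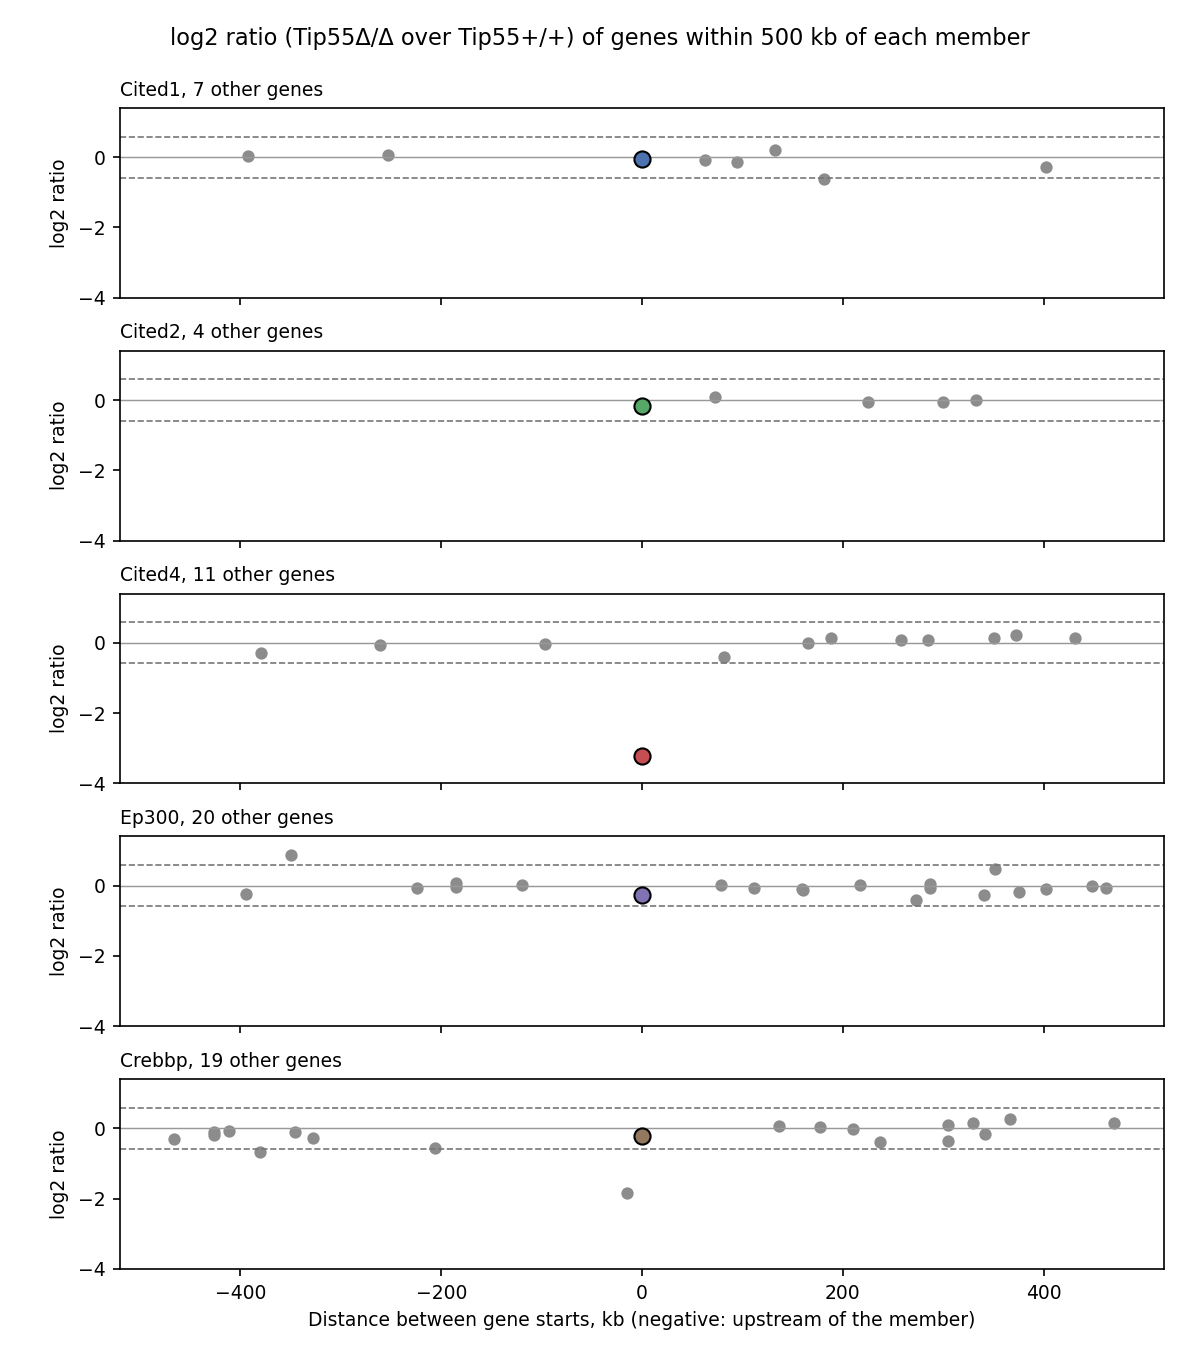
Log2 ratio of *Tip55*Δ/Δ over *Tip55*+/+ for genes that reached a mean of 10 normalized counts and whose start lies within 500 kb of that of each member (coloured point at 0), with the distance in kb on the horizontal axis and dashed lines at 1.5-fold. The 11 genes around *Cited4* all lie between the dashed lines while *Cited4* is at −3.22, and *Gm5766* stands out beside *Crebbp* at −1.85.

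Base composition moved with the ratios of this table and touches the members unequally. Over 12479 genes that reached a mean of 100, the log2 ratio was lower at higher GC content of the longest transcript (Spearman's rho −0.39, a description across genes that share libraries). *Cited4* has a GC content of 66.4%, above 99.8% of these genes, and *Cited1* one of 62.4%, above 98.6%. *Cited2* (54.5%), *Crebbp* (51.7%) and *Ep300* (51.1%) are nearer the middle. With the trend subtracted, the ratio was 0.148 for *Cited4*, 0.952 for *Cited2*, 0.902 for *Crebbp* and 0.862 for *Ep300*, and that of *Cited1* was 1.22.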

How the data were processed

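RNA from embryos at E8.5 was isolated and sequenced as libraries without strand information, 3 of *Tip55*+/+ and 3 of *Tip55*Δ/Δ, grouped by the genotype in the labels. Per the labels and the methods, the authors aligned reads to mm10, estimated gene levels by RSEM and contrasted the genotypes in EBSeq. Versions, gene annotation and filters were not given in the sources used here. The deposited table holds only that comparison, as 2 linear ratio columns (a direct fold and a posterior fold) and 2 posterior probabilities. The probabilities were not used and no fold is printed as deposited.

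The ratios were used for 1 purpose, to solve for the mean normalized count of each gene per genotype. The direct ratio adds 0.01 to both means, and the posterior ratio adds an offset, 0.514 from 613 genes at 0 in *Tip55*Δ/Δ and 565 at 0 in *Tip55*+/+. The ratio of recovered means is therefore the direct ratio without its constant, and is not independent of the authors' comparison. For 8 genes rounding left an error over 5%, and these were left out. The recovery was tested on simulated ratios with constants added in this same way. That checks the solving step only, and cannot show that the deposited ratios have this form. Depth per library, size factors and embryo spread are unknown, so the precision given is that of counting alone. Intervals for ratios were exact binomial (Clopper-Pearson) and those for means exact Poisson, both with normalized counts taken as reads.

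Genes counted as past the limit had a ratio past 1.5-fold and a mean of at least 10 in either genotype, a rule of size and no test. Members, gene lists, motifs and limits were chosen with earlier results of these data known. Genes named are the members, *Kat5*, up to 5 genes past 1.5-fold and up to 2 others of each list, and the 5 nearest (of those reaching a mean of 100) to *Cited4* in log2 ratio. Further list genes, among TFAP2 and HIF genes, other CBP and p300 binders, coactivators and *Cited2*-tied genes, were named after their values were seen. Genes of like abundance, neighbours and the promoter letters were added after values were seen. The listed genes *Ctnnb1*, *Epb42* and *Tpbpa* were not analysed here, and some further genes that the rules name are not reported here. Symbols were matched to GENCODE vM21 (GRCm38) for 19995 genes, 705 of them by an older symbol, which gave position, length and GC content of the longest transcript. Intervals came from scipy 1.17.1, the GC trend from statsmodels 0.14.6 (lowess, span 0.3) and plots from matplotlib 3.10.9, run in Python 3.11.15 with pandas 2.3.3 and numpy 2.4.6.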

Additional observations from a re-analysis of the deposited data

How the results depend on the processing

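*Cited4* stayed far below 1 under each alternative tried, from 0.107 to 0.148, the latter with the trend on GC content removed. *Cited1* changed direction, from a ratio of 0.971 to 1.01 with means divided by the genotype totals and to 1.22 with the GC trend removed. Beyond counting error, division by the totals also moved *Cited2* to 0.924, *Ep300* to 0.872 and *Crebbp* to 0.904. Removal of the GC trend, again beyond counting error, moved *Cited4* to 0.148, *Cited2* to 0.952, *Ep300* to 0.862 and *Crebbp* to 0.902. Centring on the median, 10 added normalized counts and the lowest and highest offset left all 5 ratios within their counting intervals. Genes lower and higher past 1.5-fold numbered 915 and 1202, and became 517 and 364 with a minimum mean of 100, 2207 and 2906 with no minimum, and 310 and 385 past 2-fold. With centring these counts were 850 and 1278, and with the GC trend removed 715 and 1322. The cause of these shifts beyond the changed limit or minimum was not tested. No paired analysis was possible because the table has 1 value per genotype and none per library, and for the same reason leaving out each replicate was not run. The 86.7 normalized counts of *Cited4* in *Tip55*Δ/Δ embryos carry a counting interval only, which leaves out the unknown spread between embryos.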
